A study of Mus musculus with 2 samples.

Results

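The genes described here are the killer lectin-like receptor genes and their Clec2 neighbours, taken as every protein-coding gene of the mouse annotation (GENCODE M21, assembly mm10) whose symbol starts with Klr or Clec2. They numbered 32 of 21938 protein-coding genes: 11 Klra genes (Ly49 receptors), 5 Klrb genes (NKR-P1 receptors), 5 Klrc, Klrd and Klrk genes (the CD94, NKG2 and NKG2D group), 3 Klre and Klri genes, 2 Klrg genes and 6 Clec2 genes. Accessible chromatin was mapped by DNase-seq, in which nuclei are digested with DNase I, and peaks are stretches of DNA cut more often than their surroundings. The tissue was whole thymus of female mice of the B6CASTF1/J cross at 10 days of age, in 2 biological replicates that the labels number as separate females under a shared donor record. They formed a single group with no control, so values are given per replicate or as mean ± SD (n = 2), and no test was run over genes, which are not replicates. All members lay on chromosome 6, and 29 of them formed 1 cluster of 2.64 Mb from Klrb1a to Klra2 (chr6:128609227-131247362). Klrg2, Clec2l and Klrg1 lay apart from it.

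The lectin-like receptors sit on natural killer cells and on some T cells and help to set the threshold at which these cells attack others. Ly49 receptors and the CD94 and NKG2 heterodimers read MHC class I molecules, and Klrk1 (NKG2D) reads stress-induced ligands. NKR-P1 receptors instead bind Clec2 proteins, whose genes are interspersed with theirs, so that receptor and ligand genes are inherited together. Klrb1b is an inhibitory receptor for Clec2d, and Klrb1f binds Clec2i. Single Ly49 genes are switched on in a patchy way from cell to cell, and an additional promoter upstream of the main start is known for several of them. In a whole tissue, few cells with open DNA and little opening in each cell cannot be told apart.

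The promoter windows of the members with the highest peak of each subfamily that had one are shown because they hold or adjoin the DNA that was open in the thymus. Each runs from 250 bases before to 50 bases after the annotated start at the peak and is written in the direction of the gene on the assembly GRCm38.p6. Capitals mark bases inside a footprint of either replicate, a footprint being a short run within cut DNA that is itself protected from cutting.
Clec2d (chr6:129180365-129180664, plus strand): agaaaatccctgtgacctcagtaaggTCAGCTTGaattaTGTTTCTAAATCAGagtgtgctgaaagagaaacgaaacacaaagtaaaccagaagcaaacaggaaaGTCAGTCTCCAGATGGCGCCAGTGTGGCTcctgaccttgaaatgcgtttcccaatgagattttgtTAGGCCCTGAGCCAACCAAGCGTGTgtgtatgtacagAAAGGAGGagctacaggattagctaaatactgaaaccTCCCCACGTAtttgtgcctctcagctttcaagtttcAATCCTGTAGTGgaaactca
Klrb1f (chr6:129049084-129049383, plus strand): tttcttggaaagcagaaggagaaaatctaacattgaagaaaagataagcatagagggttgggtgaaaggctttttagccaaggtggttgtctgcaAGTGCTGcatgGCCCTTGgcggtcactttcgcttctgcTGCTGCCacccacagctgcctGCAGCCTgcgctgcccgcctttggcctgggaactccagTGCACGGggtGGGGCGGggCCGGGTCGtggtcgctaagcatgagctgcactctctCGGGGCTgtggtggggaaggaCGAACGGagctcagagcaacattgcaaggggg
Klrd1 (chr6:129591532-129591831, plus strand): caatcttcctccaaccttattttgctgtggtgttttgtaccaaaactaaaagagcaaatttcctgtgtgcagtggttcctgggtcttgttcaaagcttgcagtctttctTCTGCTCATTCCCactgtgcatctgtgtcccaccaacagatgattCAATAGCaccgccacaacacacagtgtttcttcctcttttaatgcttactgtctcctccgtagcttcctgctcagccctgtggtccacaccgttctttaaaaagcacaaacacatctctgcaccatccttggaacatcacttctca
Klra5 (chr6:129917601-129917900, minus strand): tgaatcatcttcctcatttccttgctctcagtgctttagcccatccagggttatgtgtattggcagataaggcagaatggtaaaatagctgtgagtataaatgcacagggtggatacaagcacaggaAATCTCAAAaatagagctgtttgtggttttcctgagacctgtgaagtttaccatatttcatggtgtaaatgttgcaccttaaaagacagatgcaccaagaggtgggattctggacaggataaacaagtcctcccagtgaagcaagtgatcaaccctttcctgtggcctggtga
Klrg2 (chr6:38637184-38637483, minus strand): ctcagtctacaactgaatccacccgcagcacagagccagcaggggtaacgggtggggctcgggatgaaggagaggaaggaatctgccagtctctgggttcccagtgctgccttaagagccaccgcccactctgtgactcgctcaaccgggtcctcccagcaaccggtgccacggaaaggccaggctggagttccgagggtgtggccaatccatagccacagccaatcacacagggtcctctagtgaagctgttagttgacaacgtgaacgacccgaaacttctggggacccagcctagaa
Of the 300 bases, footprints covered 106 at Clec2d, 64 at Klrb1f, 20 at Klrd1 and 9 at Klra5. They covered 0 at Klrg2, whose peak (chr6:38636841-38637240) overlaps only the end of its window and whose 4 footprints lay outside the window.

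Few of these genes had an open promoter. A peak lay within 500 bp of an annotated start for 7 of the 32 members in replicate 1 (21.9%) and 3 in replicate 2 (9.38%), and all 3 were among the 7. Over all protein-coding genes the shares were 63.4% in replicate 1, 57.8% in replicate 2 and 57.2% in both. Of the 32 members, 30 had CpG-poor starts, with an observed over expected CpG ratio under 0.4 within 500 bp of the gene start. For Klrb1f (0.0659) the gene start was not the start with the peak. The median ratio was 0.171 over the members and 0.552 over all protein-coding genes. Among all genes with CpG-poor starts, 26.1% had a promoter peak in replicate 1 and 20.2% in replicate 2, so the members' share was nearer to this background than to that of all genes. Footprints near a start gave 7 and 3 members, against 60.7% and 56.5% of all genes. Bases with a listed false discovery rate of cutting lay near the starts of 7 and 4 members, against 64.8% and 58.8% of all genes. The additional gene was Klrg2 in replicate 2, with 10 such bases and a lowest rate of 0.0390.

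Both members with a promoter peak over 2 times the library median in the 2 replicates encode ligands and not receptors. The other 4 of the 6 Clec2 genes had no promoter peak. Clec2d (Clr-b), which is widely expressed on blood cells, had a peak height of 4.59 in replicate 1 and 2.32 in replicate 2, in the authors' signal units. Over the median height of all peaks of the library these were 7.34 and 2.80, a mean of 5.07 ± 3.21. The peak was centred 36 bp and 66 bp after the start, and 9 and 8 footprints lay near the start. Clec2i (Clr-g), the ligand of Klrb1f, had heights of 3.03 in replicate 1 and 2.19 in replicate 2, or 4.84 and 2.64 times the median (3.74 ± 1.56). Its peak covered chr6:128887481-128887660 in both replicates, centred 17 bp before the start, with 6 and 5 footprints. Clec2d was thus the higher of the pair in each replicate, by a margin that was smaller in replicate 2. Among all protein-coding genes with a promoter peak, the median was 6.88 in replicate 1 and 4.92 in replicate 2. Clec2d was higher than 52.6% of those genes in replicate 1 and 32.2% in replicate 2, and Clec2i was higher than 38.0% and 30.7%. Among the CpG-poor genes with a promoter peak, Clec2d was higher than 79.1% in replicate 1 and 58.2% in replicate 2, and Clec2i was higher than 65.3% and 56.2%. Clec2d and Clec2i therefore stood near or below the middle of all open promoters and above the middle of the CpG-poor ones.

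Among the receptors, Klrb1f alone had a promoter peak in both replicates. Its heights were 0.822 in replicate 1 and 0.771 in replicate 2, or 1.31 and 0.930 times the median (1.12 ± 0.272), with 5 and 4 footprints. The replicates lay close together, unlike those of the Clec2 genes. The peak was not at the first start of Klrb1f but at an annotated start 3433 bp inside the gene. The antisense transcript Gm44000 starts nearby, so the peak cannot be given to either gene alone.

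The remaining promoter peaks were low and were listed in replicate 1 only. Klrd1 (CD94, the partner of the NKG2 receptors) had a height of 0.382, which is 0.611 times the median, with 2 footprints. Klrg2, a receptor-like gene outside the cluster, reached 0.556 times the median with 4 footprints. Klra5 (Ly49E) reached 0.519 times and Klra1 (Ly49A) 0.472 times. These 4 peaks were higher than 31.5% of the peaks of replicate 1 at Klrd1, 27.7% at Klrg2, 25.1% at Klra5 and 21.6% at Klra1. Replicate 1 lists 132737 peaks and replicate 2 lists 69798. Among the 69798 highest peaks of replicate 1, the lowest height was 0.579, above all 4.

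The other 25 members had no peak, no footprint and no base with a listed rate within 500 bp of a start in either replicate. They include Klrk1 (NKG2D), the NKG2 genes Klrc1, Klrc2 and Klrc3, Klre1 and its partners Klri1 and Klri2, and Klrg1, a receptor for cadherins. They also include Klrb1c, the gene of the NK1.1 antigen, and the inhibitory receptor gene Klrb1b. Of the Ly49 genes, 9 of 11 were without a peak in both replicates, among them Klra8 (Ly49H), which recognises a cytomegalovirus protein. Of the ligand genes, Clec2e, Clec2g, Clec2h and Clec2l were without one. Clec2l, which is known from brain, had a CpG ratio of 0.756, and Klrg2 had 0.753; these were the only members above 0.4.

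**Figure D1:**
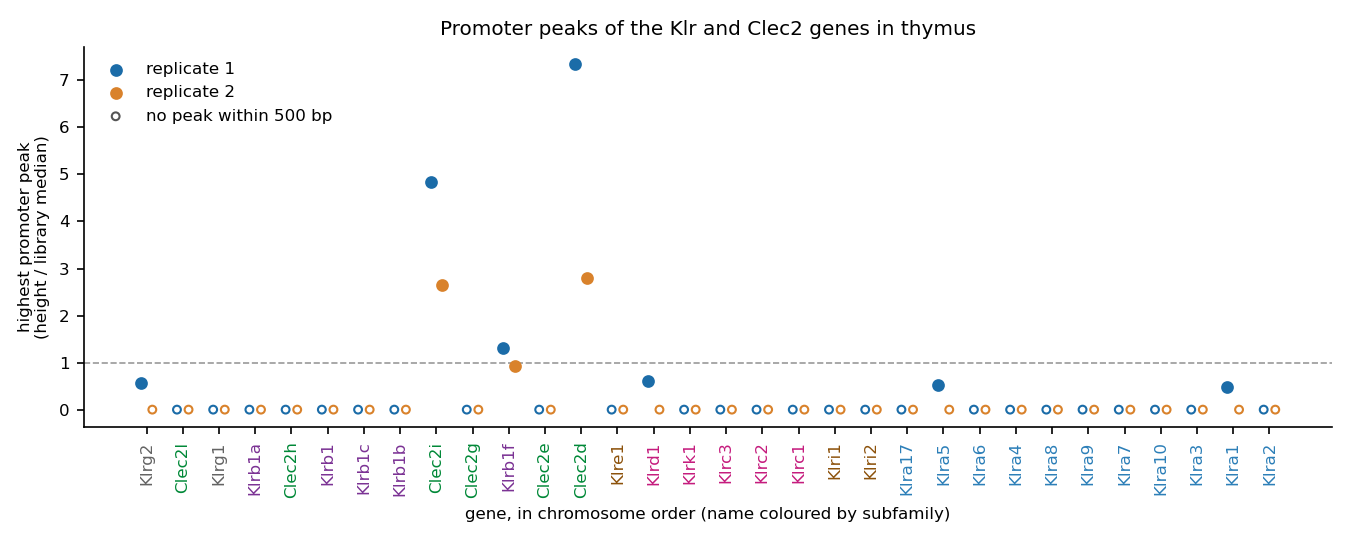
Highest peak within 500 bp of a start, as height over the median peak height of the library (vertical axis), for the 32 genes, replicate 1 in blue, replicate 2 in orange, open circles at 0 for genes with no peak and a dashed line at the library median. Clec2d and Clec2i stand above 2 times the median in both replicates, and the replicate 1 points of Klrd1, Klrg2, Klra5 and Klra1 lie below the median.

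The members without a promoter peak lay at different distances from the nearest one. The nearest peak to a Klrb gene without a promoter peak was 6.59 to 13.2 kb away in replicate 1 and 6.63 to 13.2 kb in replicate 2. For the Clec2 genes it was 1.17 to 6.65 kb in replicate 1 and 5.53 to 31.1 kb in replicate 2. For the Klra genes it was 2.50 to 65.7 kb in replicate 1. In replicate 2, all Klra genes other than Klra2 were 196 to 648 kb from the nearest peak, and Klra2 was 45.8 kb away. For the Klrc, Klrd and Klrk genes it was 1.53 to 34.7 kb in replicate 1 and 1.55 to 56.7 kb in replicate 2, and for Klre1, Klri1 and Klri2 it was 1.80 to 36.4 kb and 18.3 to 59.8 kb. Single genes with nearly the same distance in both replicates were found in several subfamilies, such as Klrb1a (6588 and 6631 bp), Klrc1 (1528 and 1550 bp) and Klri1 (36412 and 36435 bp). Klrb1b differed, with 6762 and 12130 bp. The Klra genes other than Klra2 were all farther from a peak in replicate 2.

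Some of these genes are recent duplicates, and reads from identical sequence may be placed at several sites or dropped. The share of 31-base words that occur once in the reference genome was taken within 500 bp of a start. Its median was 89.1% over the members, at all their annotated starts. Over all genes it was 100%, but at the gene start only, so the medians are not strictly comparable. The share of the members was lowest at Klrc2 (21.3%) and Klrc3 (21.4%), followed by Klra8 (42.0%) and Klra9 (47.0%), none of which had a promoter peak. It was 72.4% at Clec2d and 75.8% at Clec2i, which had peaks, and 100% at Klrb1b, Klrc1, Klri1, Klrg1 and Clec2l, which had none. These are shares of the windows and not of the peaks. Inside the highest promoter peak, the share was 99.1% in replicate 1 and 100% in replicate 2 at Clec2d. At Clec2i it was 81.3% in both. The Klrc3 and Klrc2 promoters show how little separates such copies. They were 97.2% identical over 216 aligned columns, and capitals mark the 6 columns that differ, in 1 of which Klrc2 lacks a base.
Klrc3 (chr6:129643372-129643587, minus strand): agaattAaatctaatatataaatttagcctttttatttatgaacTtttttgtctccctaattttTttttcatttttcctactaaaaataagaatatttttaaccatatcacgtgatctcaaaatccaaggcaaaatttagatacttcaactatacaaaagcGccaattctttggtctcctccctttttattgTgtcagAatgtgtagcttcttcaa
Klrc2 (chr6:129660640-129660854, minus strand): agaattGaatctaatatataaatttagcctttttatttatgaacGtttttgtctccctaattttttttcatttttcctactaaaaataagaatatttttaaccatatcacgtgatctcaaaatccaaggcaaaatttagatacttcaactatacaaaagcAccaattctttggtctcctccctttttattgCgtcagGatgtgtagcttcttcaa
How reads with several placements were treated is not given in the sources used here, and reads were not divided by parental genome, so the part of either in the missing peaks was not tested.

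Along the cluster the subfamilies differed in how many peaks surrounded them. The whole cluster held 156 peaks in replicate 1 and 62 in replicate 2, or 5.91 and 2.35 per 100 kb, beside 4.87 and 2.56 over the genome. The block of interspersed Klrb and Clec2 genes held 72 and 41 peaks over 577 kb, or 12.5 and 7.10 per 100 kb. The block from Klra17 to Klra1 held 10 peaks in replicate 1 and 0 in replicate 2 over 556 kb, or 1.80 per 100 kb in replicate 1. The Klrb and Clec2 genes therefore lay in the peak-rich end of the cluster in both replicates. The block from Klre1 to Klri2, with the CD94, NKG2D and NKG2 genes, held 5 peaks in replicate 1 and 1 in replicate 2 over 163 kb. In the 832 kb between Klra1 and Klra2 there were 7 and 1. Between Clec2d and Klre1, where no member lies, there were 61 and 19 peaks over 391 kb, or 15.6 and 4.85 per 100 kb. That was denser than the Klrb and Clec2 block in replicate 1 and less dense in replicate 2. This stretch holds Cd69, an activation antigen gene of lymphocytes, among other genes. Of 27 windows of 100 kb over the cluster, 4 in replicate 1 and 15 in replicate 2 had no peak, against 27.5% and 48.1% of the windows of the genome. The 6 windows of the block from Klra17 to Klra1 held 1 to 3 peaks each in replicate 1 and 0 in replicate 2.

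**Figure D2:**
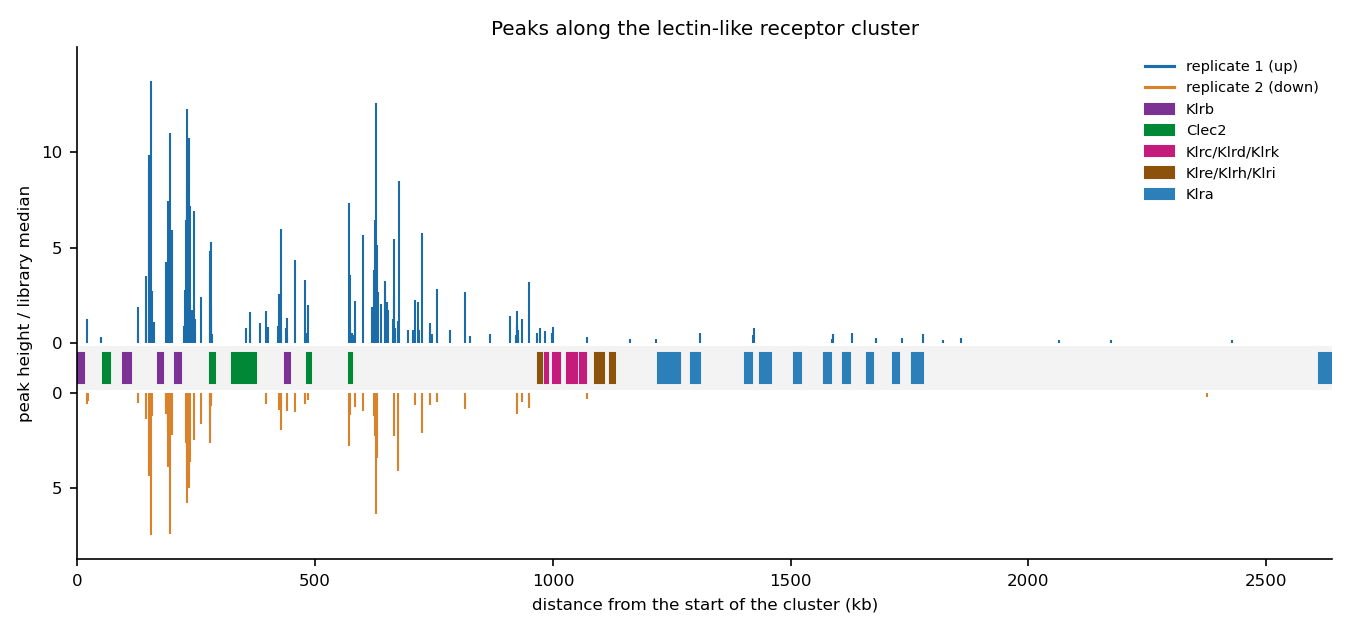
Every peak of the cluster by its distance from the cluster start (horizontal axis), with its height over the library median (vertical axis) upward for replicate 1 and downward for replicate 2, and the genes coloured by subfamily. The tall peaks stand among and just beyond the Klrb and Clec2 genes, up to 13.7 times the median, and the Klra genes have low peaks in replicate 1 and none in replicate 2 beside them.

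Heights followed the same blocks. In the Klrb and Clec2 block, 48 of 72 peaks in replicate 1 and 25 of 41 in replicate 2 were higher than the library median. None of the 10 peaks of replicate 1 in the block from Klra17 to Klra1 was, and their median was 0.421 times the library median. None of the 5 peaks from Klre1 to Klri2 was either. With replicate 1 cut to its 69798 highest peaks, the Klrb and Clec2 block kept 48 peaks and the Klra and the Klre1 to Klri2 blocks kept 0. All Klra peaks of replicate 1 were thus lower than the lowest of those 69798 peaks. Footprints per peak were 3.56 and 3.90 in the Klrb and Clec2 block and 1.2 in the Klra block of replicate 1, beside 2.83 and 3.01 over the genome.

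Most peaks of the cluster were away from promoters. Between genes lay 99 peaks of replicate 1 and 37 of replicate 2, in gene bodies 38 and 15, and within 500 bp of a start of any protein-coding gene 19 and 10. The gaps between neighbouring genes ranged from crowded to empty. In the gap of 22.8 kb from Klrb1b to BC035044, upstream of Klrb1b, there were 16 peaks in replicate 1 and 7 in replicate 2. From Klrb1 to Klrb1c there were 10 and 6 over 55.4 kb. The gaps from Clec2h to Klrb1 (28.5 kb), Clec2i to Clec2g (36.2 kb) and Clec2e to Clec2d (79.7 kb) held 0 in both replicates. Others held a few, such as 3 and 2 from Klrb1a to Clec2h (38.9 kb) and 3 and 2 from Klrb1f to Clec2e (34.5 kb). A readthrough gene, Gm44511, spans the stretch from Klrb1c to Klrb1b, so the peaks there count as gene body.

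The replicates shared most of what replicate 2 listed. In the cluster, 55 of 62 peaks of replicate 2 (88.7%) were overlapped by a peak of replicate 1, and 54 of 156 the other way (34.6%), beside 83.2% and 43.2% over the genome. Of the 54 pairs, 52 were higher in replicate 1 by deposited height, with a median ratio of replicate 1 over replicate 2 of 1.98, beside 1.42 over 57361 pairs of the genome. Over 500 bp from a start the median ratio was 2.05 in the cluster and 1.6 in the genome, so a higher replicate 1 was not limited to the cluster. The promoter ratios were 1.98 at Clec2d, 1.38 at Clec2i and 1.07 at Klrb1f. Over the genome, pairs within 500 bp of a start had a median of 1.13, with quartiles of 0.925 and 1.42.

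Peaks over 500 bp from any start of a protein-coding gene that were over 2 times the library median in both replicates numbered 18. Between Klrb1 and Klrb1c lay 3, between Klrb1c and Klrb1b 3, between Klrb1b and Clec2i 6, and between Clec2d and Klre1 6. None lay in the Klra or the Klre1 to Klri2 block. The highest, chr6:128764161-128764440 between Klrb1 and Klrb1c, had heights of 8.59 in replicate 1 and 6.17 in replicate 2, or 13.7 and 7.45 times the median. Its nearest member start, that of Klrb1c, was 24215 bp away, and the element lay past the 3′ end of that gene. Next by the mean of the replicates came chr6:129237901-129238180, between Clec2d and Cd69, at 12.6 and 6.35 times the median. Starts of the lincRNAs 2310001H17Rik and Gm47861 lie near it, which are not protein-coding genes. Upstream of Klrb1b, chr6:128839601-128839800 stood at 12.2 and 5.78 times and chr6:128842981-128843380 at 10.7 and 4.98 times, and chr6:128803081-128803300, between Klrb1c and Klrb1b, at 11.0 and 7.38 times, the second highest in replicate 2. These elements were higher than the promoter peaks of Clec2d and Clec2i in both replicates. The one at chr6:128842981-128843380 also lies within 500 bp of starts of lincRNAs, Gm44066 and Gm26656. The 18 lay 10356 to 153386 bp from the nearest member start, and each was higher in replicate 1, by a ratio of 1.12 to 2.18.

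Several of the elements near the Klrb genes are copies of each other, when compared with 60 bases added on each side. Those at chr6:128760741-128761080 and chr6:128799461-128799740, on either side of Klrb1c, were 94.2% identical over 382 aligned bases, flanks included. The highest element and the one at chr6:128803081-128803300 were 88.8% identical over 340, flanks included. Those at chr6:128760121-128760300 and chr6:128838881-128839140 shared 103 identical bases in opposite directions. A stretch of 88 bases recurs in or at the edge of 6 of the 18, with 2 copies in each of the 3 gaps from Klrb1 to Clec2i. The copies are shown because they carry footprints at the same place, and capitals mark bases in a footprint of either replicate.
Klrb1 to Klrb1c, left (chr6:128760714-128760801, plus strand): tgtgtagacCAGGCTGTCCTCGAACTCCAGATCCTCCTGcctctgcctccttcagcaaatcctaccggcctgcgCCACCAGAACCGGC
Klrb1 to Klrb1c, right (chr6:128764136-128764223, plus strand): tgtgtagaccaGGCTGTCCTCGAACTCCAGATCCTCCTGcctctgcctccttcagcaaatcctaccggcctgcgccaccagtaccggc
Klrb1c to Klrb1b, left (chr6:128799454-128799541, plus strand): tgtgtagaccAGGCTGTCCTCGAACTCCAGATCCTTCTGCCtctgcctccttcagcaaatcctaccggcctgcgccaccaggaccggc
Klrb1c to Klrb1b, right (chr6:128803021-128803108, plus strand): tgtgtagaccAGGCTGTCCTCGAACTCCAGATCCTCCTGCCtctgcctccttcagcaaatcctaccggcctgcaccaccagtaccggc
Klrb1b to Clec2i, left (chr6:128838451-128838538, minus strand): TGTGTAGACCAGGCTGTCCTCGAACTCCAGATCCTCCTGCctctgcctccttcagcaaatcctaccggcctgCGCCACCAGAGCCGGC
Klrb1b to Clec2i, right (chr6:128843287-128843373, minus strand): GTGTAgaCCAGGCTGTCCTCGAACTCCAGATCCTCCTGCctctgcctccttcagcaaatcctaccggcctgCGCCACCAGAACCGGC
Bases 12 to 39 of the stretch, which read GGCTGTCCTCGAACTCCAGATCCTCCTG in the highest element, were inside a footprint in all 6 copies when the replicates were joined. Bases 12 to 39 were picked for being so covered, so that count was given in advance. Within this chosen run, each replicate by itself had a footprint touching the bases in 6 of 6 copies. Base by base, 5 or 6 copies were covered in replicate 1. In replicate 2 it was 2 to 6 copies, with 6 at base 18 only, and 3 at base 12 and 2 at base 39. From base 42 on, at most 1 copy in replicate 1 and 3 copies in replicate 2 had a footprint at the same base.

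**Figure D3:**
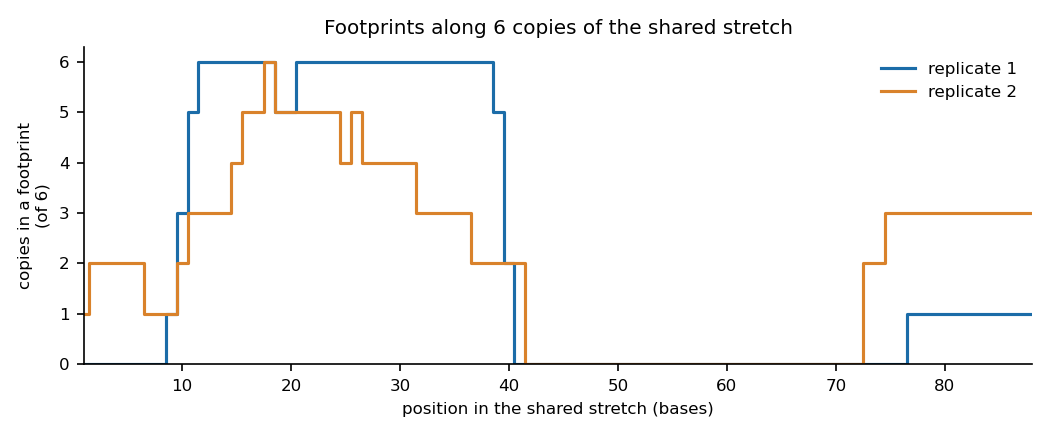
Number of the 6 copies with a footprint (vertical axis) at each base of the 88-base stretch (horizontal axis), in replicate 1 (blue) and replicate 2 (orange). Both lines reach 6 copies within bases 12 to 39, replicate 2 at base 18 only, and stand at 0 from base 42 to base 72.

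The stretch also occurs outside the cluster. Copies were counted only with at least 80 aligned bases and 85% identity, and more distant ones were left out. Within these limits the stretch had 143 copies in the genome, 7 of them in the cluster. Of these 7, 6 carried a footprint and 5 were touched by a peak in each replicate. The cluster copy with neither, chr6:128850265-128850342, was 86.4% identical. Of the 136 copies outside, 5 were touched by a peak in replicate 1 and 5 in replicate 2, and all but 1 of those lay on chromosome 6 between positions 47650768 and 47778339. In the 6 copies, 0% to 41.4% of the 31-base words occur once in the genome, so many reads inside the stretch would match more than 1 place. Over the whole peaks of the 6 elements, 65.3% to 100% of the words occur once in replicate 1 and 61.8% to 100% in replicate 2. The 100% was at chr6:128803081-128803300, where the replicate 1 peak does not touch the copy. The part of shared reads in these peaks and footprints was not tested. In the replicate 1 peaks of the 6 elements, 0% to 36% of the bases are masked as repeats in the reference genome. Whether the stretch belongs to a widespread repeat family was not tested.

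**Figure D4:**
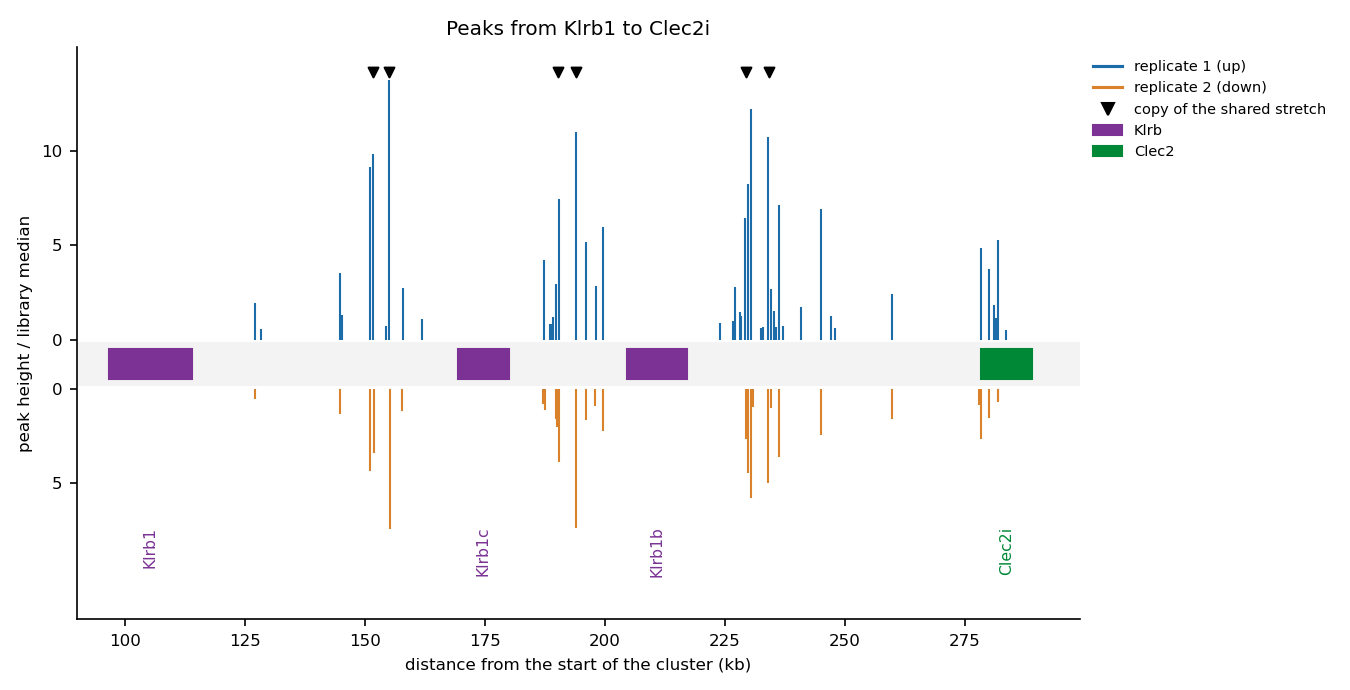
Peaks from Klrb1 to Clec2i by position along the cluster (horizontal axis), with height over the library median (vertical axis) upward for replicate 1 and downward for replicate 2, the Klrb and Clec2 genes as boxes and the copies of the 88-base stretch as triangles. The 6 copies with footprints come as 2 in each of the 3 crowded gaps, beside peaks of up to 13.7 times the median.

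The Ly49 genes had related sites of their own, listed in replicate 1 alone. Of the 9 peaks between genes of the block from Klra17 to Klra1, 5 lay 4559 to 4879 bp upstream of the start of Klra6, Klra9, Klra7 or Klra3. The highest, chr6:130031661-130031940 upstream of Klra6, stood at 0.778 times the library median with 3 footprints. Its sequence of 280 bases had 7 copies at 85% or more identity in the genome, itself included, all in the cluster. They lay upstream of Klra6 (4847 bp), Klra9 (4623 bp), Klra7 (4566 bp), Klra3 (4698 bp) and Klra10 (6429 bp), and close to the annotated starts of Klra5 (88 bp) and Klra1 (184 bp). All 7 were touched by a peak in replicate 1, at 0.269 to 0.778 times the median, and 0 in replicate 2. The copy at Klra6 is the searched sequence and was chosen for its peak, so its peak was given in advance. The other copies stood at 0.269 to 0.556 times the median. The promoter peaks of Klra5 and Klra1 are 2 of these 7, and 5 of the 7 carried a footprint. The stretch of each copy around the footprints is shown in the direction of the gene, with capitals for bases in a footprint of replicate 1.
Klra5 (chr6:129917712-129917809, minus strand): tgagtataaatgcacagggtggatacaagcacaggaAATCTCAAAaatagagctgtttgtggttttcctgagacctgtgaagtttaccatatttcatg
Klra6 (chr6:130031775-130031871, minus strand): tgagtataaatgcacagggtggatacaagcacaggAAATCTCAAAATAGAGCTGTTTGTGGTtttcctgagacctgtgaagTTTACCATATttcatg
Klra9 (chr6:130197709-130197805, minus strand): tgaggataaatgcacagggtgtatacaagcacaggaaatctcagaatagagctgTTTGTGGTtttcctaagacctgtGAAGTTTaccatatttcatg
Klra7 (chr6:130237863-130237959, minus strand): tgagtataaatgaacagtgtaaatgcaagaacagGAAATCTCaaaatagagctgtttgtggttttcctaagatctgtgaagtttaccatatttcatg
Klra10 (chr6:130288322-130288414, minus strand): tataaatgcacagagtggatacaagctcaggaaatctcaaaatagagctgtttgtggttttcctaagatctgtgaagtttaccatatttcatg
Klra3 (chr6:130342248-130342342, minus strand): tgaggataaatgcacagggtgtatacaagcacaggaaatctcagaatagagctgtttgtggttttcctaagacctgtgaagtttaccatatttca
Klra1 (chr6:130387035-130387131, minus strand): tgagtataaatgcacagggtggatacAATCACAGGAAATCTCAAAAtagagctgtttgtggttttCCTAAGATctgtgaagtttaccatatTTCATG
A further 6 copies were 74.5% to 78.9% identical, upstream of Klra4, Klra8, Klra2 and the pseudogenes Klra11-ps, Klra13-ps and Klra14-ps. None of these 6 had a peak or a footprint in either replicate. Of the 7 closer copies, 41.4% to 76.5% of the words occur once in the genome. The stretches shown for Klra9 and Klra3 are identical over the bases that both hold. The part of shared reads in the peaks and footprints of the 7 copies was not tested. The stricter peak list held 5 of the 7, and the 69798 highest peaks of replicate 1 held 0.

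**Figure D5:**
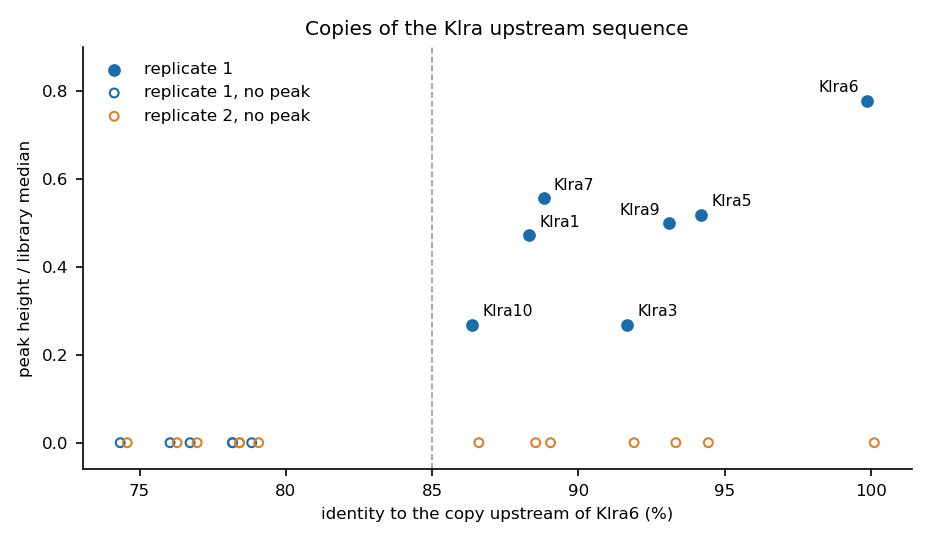
Height of the replicate 1 peak over the library median (vertical axis) at each copy of the sequence upstream of Klra6, by percent identity to it (horizontal axis), with open circles at 0 where a replicate has no peak, the replicates drawn slightly apart and the dashed line at 85%. The 7 copies from 86.5% identity have peaks between 0.269 and 0.778, and the 6 copies up to 78.9% have none. The point at 100% is the searched sequence itself, which was chosen for its peak.

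Fixed sequence words were searched on both strands of 300-base promoter windows, placed here at the gene start of every gene. None of the words contains another. The TATA word TATAAA was in 12 of 32 members (37.5%), 6 of them Klra genes, against 12.6% of all protein-coding genes and 20.9% of those with CpG-poor starts. The AP-1 word TGANTCA was in 8 members (25%), against 6.91% of all and 11.0% of CpG-poor genes. The Runx word TGTGGT was in 9 members (28.1%), among them 4 of the 5 Klrc, Klrd and Klrk genes, against 15.3% and 21.1%. The GC box GGGCGG was in 5 members (15.6%), against 43.0% and 10.4%. Of all 13 words searched, it alone was found inside a footprint within 500 bp of any start of a member, at Clec2i and Klrb1f. At Klrb1f that footprint lay at the start 3433 bp inside the gene, outside the 300-base window. These are matches of letters and not sites of binding. Some members that share a word also have promoters alike over the aligned bases, so members are not independent in these counts. Examples are Klrc3 and Klrc2 with TATAAA (97.2% identical), Klrb1a and Klrb1c with TGTGGT (98.7%) and Clec2h and Clec2e with TGANTCA (91.9%). In the 280-base copies upstream of the Klra genes, TGTGGT was in 7 of 7 closer and 4 of 6 more distant copies and TATAAA in 5 of 7 and 6 of 6. Windows of that length at replicate 1 peaks away from starts held them in 26.7% and 13.1%, but the copies resemble each other by choice, so their counts are not comparable with these shares. TGTGGT lies in a footprint upstream of Klra6 and Klra9. In 200-base windows at the 18 strong elements TGTGGT was in 5 (27.8%), against 21.3% of such windows at replicate 1 peaks away from starts, and GGGCGG was in 4 (22.2%), against 7.34%, although some of these elements are copies of each other too.

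Genes that work with these receptors were counted in the same way, beside the 63.4% and 57.8% of all protein-coding genes with a promoter peak. Of 15 adaptor and signalling genes, 11 had a promoter peak in each replicate, led by the kinase genes Fyn (13.1 and 14.5 times the median), Lck (11.1 and 9.69) and Zap70 (7.18 and 3.59) and the phosphatase gene Ptpn6 (5.92 and 4.76). Fcer1g, Sh2d1b1, Sh2d1b2 and Tyrobp had none. Of 10 genes of receptor ligands, 7 in replicate 1 and 8 in replicate 2 had one, among them H2-D1, read by Ly49 receptors (15.3 and 8.33), Ulbp1, a ligand of Klrk1 (6.13 and 3.48), and H2-T23, which encodes Qa-1, read by CD94 and NKG2 (5.55 and 2.27). Of 10 other natural killer receptor genes, 9 and 6 had a peak, among them Cd160 (5.96 and 1.98) and Fcgr3 (3.89 and 3.10), and Ncr1 had none. Of 14 regulators of natural killer and T cells, 13 had a peak in each replicate, led by Ets1 (15.3 and 13.0) and Id2 (15.1 and 11.0), and Zfp683 had none. Of the 14 other coding genes of the cluster, 5 and 4 had one, with Cd69 at 5.47 and 2.24.

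The label of the tissue was checked on cell type markers. Promoter peaks were present for 5 of 5 thymocyte genes in both replicates, and for 4 and 3 of 5 natural killer genes, with Ncr1 at none. They were present for 1 of 4 B cell genes (Pax5), 1 of 4 epithelial genes (Aire) and 1 of 5 macrophage and dendritic cell genes (Lyz2) in each replicate. Over all protein-coding genes the shares were 63.4% in replicate 1 and 57.8% in replicate 2. The natural killer genes, at 80% and 60%, stood above that share in replicate 1 and near it in replicate 2. Their count is therefore no measure of natural killer cells in the tissue. Gzma had a peak of 4.38 times the median in replicate 1 and none in replicate 2, and its part in the difference between replicates at the members was not tested.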

How the data were processed

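DNase-seq of 2 thymus libraries was analysed from the deposited files. Peak heights are a signal that the authors scaled per library: heights were whole multiples of 1 step, 0.00579 in both libraries, with a median of 108 steps in replicate 1 and 143 in replicate 2. The read depth is unknown, so no counting interval is given. Of the 2 deposited peak lists per library the larger was used (132737 and 69798 peaks). The deposited false discovery rates (q-values) of the cut rate are listed only under 0.05. The deposited footprints (375374 and 210014) carry a constant score. The assembly is mm10, per the labels; the aligner, peak caller and treatment of reads with several placements are not given in the sources used here.

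Heights were divided by the library median. Starts were those of all transcripts of GENCODE M21 genes outside the mitochondrial genome. Overlap of at least 1 base counted. Copies were found with blastn 2.17.0, and words were counted on GRCm38.p6. Python 3.11.15, numpy 2.4.6, pandas 2.3.3, matplotlib 3.10.9, samtools 1.23.1 and bedtools 2.31.1 were used, and the overlap code was tested on simulated data. The members and lists were chosen with earlier results of these data known. Pathway genes named are up to 4 per list with the highest mean height and up to 3 with no peak in symbol order, and Tyrobp, Pax5, Aire, Lyz2 and Gzma were named after their values were seen. The CpG limit of 0.4, the rule for strong elements, the identity limits for copies and the Klra upstream sequence were chosen after seeing the data. So were bases 12 to 39 of the 88-base stretch.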

Additional observations from a re-analysis of the deposited data

How the results depend on the processing

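The number of members with a promoter peak in both replicates (3) was 3 with windows of 200 or 1000 bp, with the stricter peak lists and with equal numbers of peaks. It was 2 with only gene starts or only protein_coding transcripts, where Klrb1f was lost. Leaving out a replicate gave 3 to 7, and the footprint count likewise 3 to 7; without replicate 2 both counts were 7. The order of heights, Clec2d over Clec2i over Klrb1f, held in 2 of 2 replicates on each scale tried. Klrb1f stood at 0.722 times the median of the stricter lists.

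Peaks between genes averaged 68 over the replicates, 65.5 with overlapping peaks joined, 49.5 with the stricter lists and 44.5 with equal numbers. Leaving out a replicate gave 37 to 99. Within the spans of single subfamilies it was 27.5 for Clec2, 27.5 for Klrb, 8 for Klra, 1 for Klrc, Klrd and Klrk and 2 for Klre and Klri, by construction fewer. Chosen after seeing the data, leaving out Gm44511 gave 77.5. Strong elements numbered 12 at over 3 times the median and 29 at over 1 time. No paired analysis was possible because there is 1 group. With 2 libraries that differ in number of peaks, a peak listed in replicate 1 alone cannot be told apart from one missed in the shorter list of replicate 2.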

Other observations

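Of the 6 Klr and Clec2 pseudogenes of the cluster (Clec2f, Clec2j, Klrb1-ps1, Klra11-ps, Klra13-ps and Klra14-ps), 0 had a peak within 500 bp of a start in either replicate. Of all 51 pseudogenes there, 1 had one in replicate 1 and 0 in replicate 2. Of 27 other non-coding genes of the cluster, 7 in replicate 1 and 6 in replicate 2 had one.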
